A study of Mus musculus with 12 samples.

Results

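Sterol synthesis was followed through 8 genes in RNA sequencing counts of 12 mouse kidneys, 4 control kidneys and 8 kidneys taken after ischemia. The genes were the enzymes Hmgcs1, Idi1, Fdps, Fdft1, Sqle and Lss and the regulators Srebf2 and Insig1, found by their symbols as 8 of the 23420 rows of the count table. All kidneys came from C57BL/6J males, and the methods of the study give mice between 8 and 15 weeks old. The controls were normal kidneys removed at nephrectomy by the methods, although the labels give the same 20 min of pedicle clamping and the same wait of 24 h for every sample. The 8 ischemic kidneys underwent 20 min of ischemia with a clamp placed beforehand and tightened from outside, and 24 h of reperfusion. Some of these animals were anaesthetised with ketamine and xylazine during the ischemia, and the others were conscious after a brief isoflurane sedation to move the clamp. The titles and the group fields of these 8 samples contradict each other. The 4 kidneys titled as anaesthetised but grouped as conscious are therefore called set A, and the 4 titled as conscious but grouped as anaesthetised are called set B, with no direction given to anaesthesia.

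Cells make cholesterol from acetyl units through the mevalonate pathway. Hmgcs1 condenses acetyl units to HMG-CoA, the precursor of mevalonate, Idi1 and Fdps shape and join the isoprene units into farnesyl diphosphate, Fdft1 couples these into squalene, and Sqle and Lss turn squalene into the first sterol. The transcription factor made from Srebf2 switches on genes of sterol synthesis and lipoprotein uptake when sterols run low, and Insig1, itself one of its targets, holds that factor in the endoplasmic reticulum when sterols suffice. The kidney makes cholesterol itself and takes up lipoproteins as well, and its proximal tubule is rich in membranes that need it.

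Each kidney had 15367342 to 44793350 counts in all, and levels are given as CPM, the count scaled by that total in the usual way. A level of 3 counts, used here as the floor of detection for counting error only, stood for 0.067 to 0.195 CPM. Marker genes of proximal tubule, loop of Henle, podocyte and endothelium were detected in every kidney group. Set B replicate 4 stood apart from the other 11 kidneys on the second principal component of log2 CPM, at 149.4 against -41.4 to 25.6. Values without it are given for the set B fits of Hmgcs1 and Srebf2 and for some ratios and marker sums below. The labels do not say that the 4 kidneys of a group came from separate animals, so that the p-values measure only the spread between these samples.

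The 8 genes lay far apart in level in normal kidney. Divided by the exon length of the gene in kilobases, the mean control level was 108.8 CPM per kb for Hmgcs1, 16.2 for Srebf2, 8.73 for Fdps, 2.79 for Insig1, 0.900 for Sqle, 0.553 for Fdft1, 0.535 for Lss and 0.0710 for Idi1. Hmgcs1 lay above 95.7% of the 11664 tested genes in control CPM and Srebf2 above 80.9%, while Sqle, Fdft1 and Lss lay between the percentiles 22.2 and 24.8. Hmgcs1 lay above Srebf2 in every control kidney, while the highest Fdps kidney, at 13.2 CPM per kb, came above the lowest Srebf2 kidney, at 12.7 CPM per kb. Fdps lay above Insig1 in every kidney, and the highest Sqle kidney, at 1.66 CPM per kb, came above the lowest Insig1 kidney, at 1.43 CPM per kb. Sqle, Fdft1 and Lss overlapped in their per-length levels, so that these neighbours do not differ beyond their spread.

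**Figure D1:**
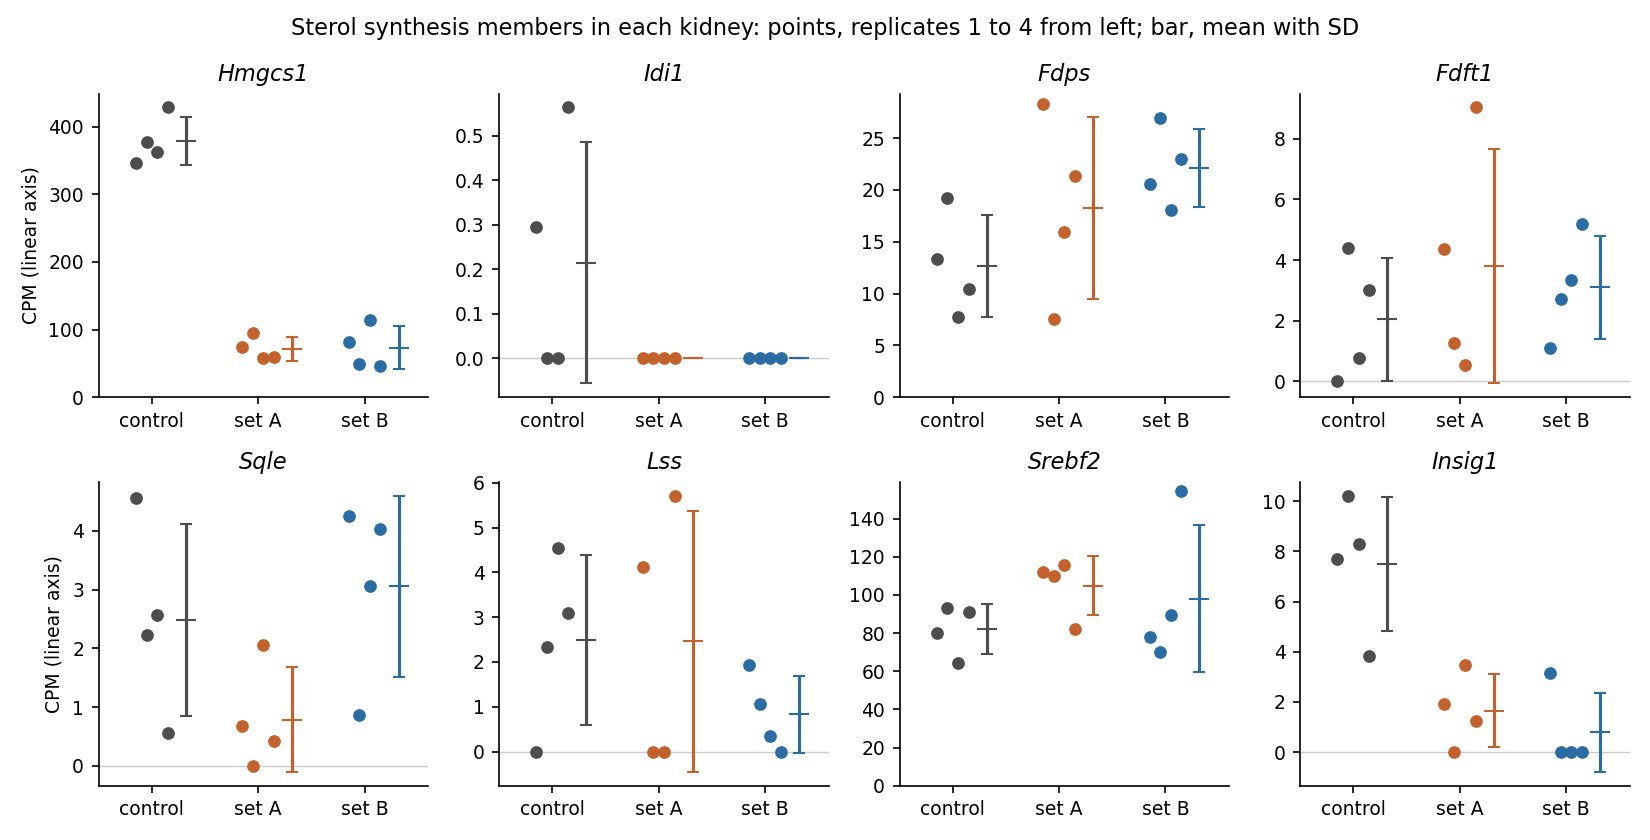
CPM of each of the 8 genes (vertical axis, linear, each panel with its own scale) in the 4 control kidneys, the 4 kidneys of set A and the 4 of set B; points are kidneys and the horizontal mark with its bar is the mean with the SD. The 8 ischemic kidneys lie between 46.3 and 114.4 CPM for Hmgcs1, all below the control range of 346.7 to 429.8, whereas Srebf2 overlaps between the groups and Idi1 has no count after ischemia.

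Of these genes, Hmgcs1, on chromosome 13 of mm10 from 119690379 to 119708260 on the plus strand, was the one that passed the edgeR test. In the control replicates 1 to 4 it stood at 346.7, 376.9, 362.1 and 429.8 CPM. In set A it stood at 73.9, 95.6, 57.9 and 58.7 CPM, and in set B at 81.7, 49.4, 114.4 and 46.3 CPM. Every ischemic kidney lay below every control kidney, with 114.4 CPM as the highest ischemic and 346.7 CPM as the lowest control value. The mean fell from 378.9 ± 36.1 CPM (SD, n = 4) to 71.5 ± 17.6 CPM in set A, a log2 fold change of -2.43 ± 0.23 (SE) with a 95% interval from -2.95 to -1.91 (edgeR quasi-likelihood test, Benjamini-Hochberg adjusted p = 2.87e-07). In set B the mean was 72.9 ± 32.0 CPM (SD, n = 4), a log2 fold change of -2.40 ± 0.23 (SE) with an interval from -2.92 to -1.88 (edgeR, adjusted p = 3.46e-07). The exact two-sided permutation test of mean CPM gave p = 0.0286 in each set, the smallest that 4 kidneys against 4 can give. Both sets were set against the same 4 controls, so that the paired values are not independent. Without set B replicate 4 the log2 fold change in set B was -2.23 (edgeR, adjusted p = 2.48e-07). In whole tissue, fewer cells of a type and less RNA in each cell cannot be told apart.

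No other of the 8 genes passed this test. The low-count filter kept 7 of them, all but Idi1, and 1 of the 7 was past the adjusted threshold of 0.05 in each set, against 22.3% (set A) and 22.8% (set B) of all tested genes. In the direction of Hmgcs1, the shares of all genes called lower were 11.7% and 11.9%. With both sets averaged against control, 1 of 7 was again called, Hmgcs1 at -2.42 ± 0.20 (SE) (edgeR, adjusted p = 8.12e-09), while 26.4% of all genes were called and 14.2% were called lower. The median log2 fold changes of the 7 genes were -0.06 and 0.22, beside -0.02 over all genes in each set. Hmgcs1 itself ranked 504th of 11664 genes from the most negative log2 fold change in set A and 598th in set B.

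The bases before the start are printed for the enzyme that fell and for the pair of regulators, to show which elements of the sterol and NF-Y factors these windows carry. They come from RefSeq (GRCm38.p6, the build of mm10), whose table, with 250 bases before and 50 bases after each start, held 5 of the 8 genes, Lss and Idi1 being the other two. Capitals mark matches, on either strand, to CACNCCAC, the core of a sterol regulatory element, and to CCAAT, the box bound by the NF-Y complex, which reads ATTGG on the other strand. All 3 genes lie on the plus strand, Hmgcs1 at chr13:119690101-119690350, Srebf2 at chr15:82147019-82147180 and Insig1 at chr5:28071162-28071362, where the last 2 windows stop before the start that GENCODE gives.
Hmgcs1: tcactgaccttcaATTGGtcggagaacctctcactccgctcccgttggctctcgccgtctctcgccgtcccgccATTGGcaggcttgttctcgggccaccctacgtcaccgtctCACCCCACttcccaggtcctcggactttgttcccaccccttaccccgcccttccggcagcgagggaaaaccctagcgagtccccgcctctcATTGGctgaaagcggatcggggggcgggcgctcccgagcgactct
Srebf2: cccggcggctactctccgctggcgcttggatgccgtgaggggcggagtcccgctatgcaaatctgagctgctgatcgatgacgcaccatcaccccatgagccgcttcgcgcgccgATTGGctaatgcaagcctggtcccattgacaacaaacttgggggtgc
Insig1: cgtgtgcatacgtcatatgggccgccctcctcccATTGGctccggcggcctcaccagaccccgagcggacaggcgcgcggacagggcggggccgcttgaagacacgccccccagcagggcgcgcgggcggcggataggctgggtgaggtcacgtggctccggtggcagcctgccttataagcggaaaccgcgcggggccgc

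The element core was found in Hmgcs1, with its first base 136 bases upstream of the RefSeq start, and in Insig1, on the minus strand 9 bases upstream, where it reads GTGGCGTG and lies beyond the bases printed. No match was in the 300 bases of the other 3 genes. Of all 32851 promoters in the table, 6.24% held the core, and of the 13 promoters of other sterol enzymes 1 did, that of Acat2. The CCAAT box stood in all 5 promoters of the 8 genes and in 12 of the 13 of other enzymes, against 37.4% of all promoters. These matches describe the windows only and were sought after the expression values were seen.

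In the isoprenoid steps, Fdps was the only member measured at a moderate level. Fdps, which makes farnesyl diphosphate (chromosome 3, 89093588 to 89101959), stood at 13.3, 19.2, 7.76 and 10.4 CPM in the controls, at 28.3, 7.55, 15.9 and 21.3 CPM in set A and at 20.6, 26.9, 18.1 and 23.0 CPM in set B. Most ischemic kidneys were above most controls, but the groups overlapped. The log2 fold change was 0.51, with an interval from -0.35 to 1.36, in set A (edgeR, adjusted p = 0.424) and 0.78, from -0.07 to 1.64, in set B (edgeR, adjusted p = 0.158). These intervals lie above those of Hmgcs1, which end at -1.91 and -1.88. The annotation holds another protein-coding gene, Gm43738, on the same strand over Fdps, so that its counts are uncertain.

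Idi1, which converts isopentenyl diphosphate to its isomer (chromosome 13, 8885501 to 8892451), was hardly detected. It had 6, 0, 0 and 22 counts in the control kidneys and 0 in each of the 8 ischemic kidneys, where a count of 0 allows up to 3 counts, or 0.067 to 0.195 CPM. The control counts themselves were at most 0.564 CPM, with 2 of 4 kidneys at 0. The gene was therefore not tested, and the groups overlap at 0.

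Fdft1, squalene synthase (chromosome 14, 63145150 to 63179578), varied more within groups than between them. It stood at 0, 4.39, 0.784 and 3.002 CPM in the controls, at 4.38, 1.26, 0.536 and 9.04 CPM in set A and at 1.10, 2.73, 3.36 and 5.21 CPM in set B. The log2 fold change was 0.86 in set A (interval -1.85 to 3.57) and 0.55 in set B (interval -2.16 to 3.26), with adjusted p of 0.734 and 0.839 in edgeR. The annotation places Ctsb, a lysosomal protease gene, over part of Fdft1 on the opposite strand, and the strand setting of the counting is not given in the sources used here.

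Sqle, squalene epoxidase (chromosome 15, 59315077 to 59331192), stood at 4.57, 2.22, 2.58 and 0.564 CPM in the controls, at 0.671, 0, 2.05 and 0.416 CPM in set A and at 4.25, 0.869, 3.06 and 4.03 CPM in set B. Both sets overlapped with the controls, and the set B kidneys lay within the control range. The log2 fold change was -1.66 in set A (interval -4.53 to 1.21) and 0.28 in set B (interval -2.57 to 3.14), with adjusted p of 0.451 and 0.929 in edgeR.

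Lss, lanosterol synthase (chromosome 10, 76531588 to 76557138), stood at 0, 2.32, 4.55 and 3.10 CPM in the controls, at 4.12, 0, 0 and 5.71 CPM in set A and at 1.94, 1.06, 0.346 and 0 CPM in set B. Set A split into 2 kidneys above 4 CPM and 2 without a count. The log2 fold change was -0.06 in set A (interval -4.09 to 3.98) and -1.59 in set B (interval -5.66 to 2.47), with adjusted p of 0.990 and 0.641 in edgeR.

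The spread within groups differed between the genes. The SD within groups was 0.33 on the log2 scale for Srebf2, 0.41 for Hmgcs1 and 0.59 for Fdps, and it was 1.47 for Sqle, 1.92 for Fdft1, 2.15 for Insig1 and 2.85 for Lss. The set A intervals of Sqle and Lss include both 0 and the -2.43 of Hmgcs1, so that no change and a fall of that size cannot be told apart in them. The set A interval of Fdft1 ends at -1.85, above the -2.43 of Hmgcs1.

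**Figure D2:**
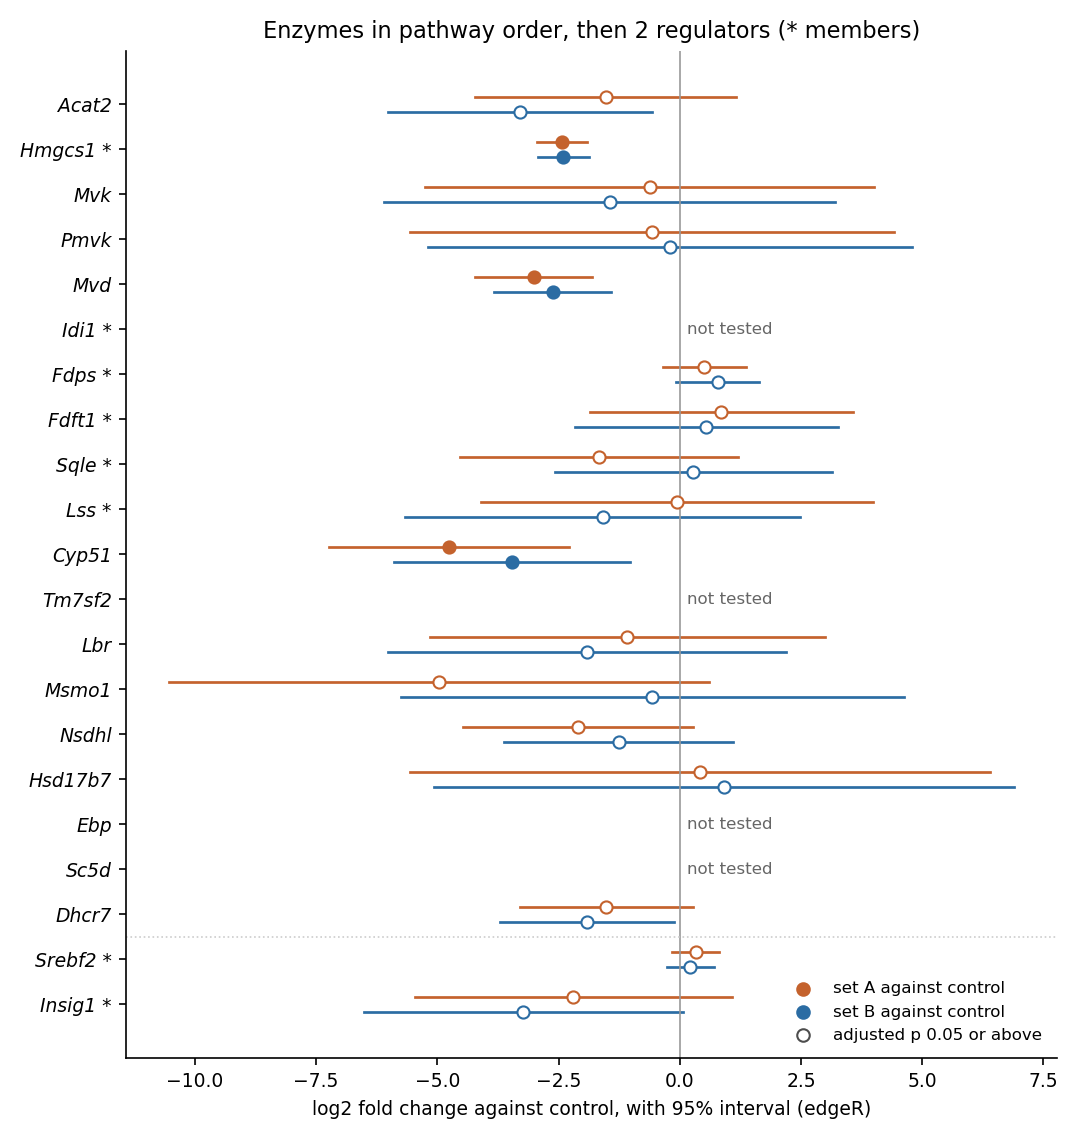
Log2 fold change against control (horizontal axis, edgeR) with its 95% interval for 19 enzymes in pathway order and then Srebf2 and Insig1, set A in orange and set B in blue; filled points passed the adjusted threshold of 0.05 and stars mark the 8 genes described here. Hmgcs1 has the narrowest interval among the enzymes past the threshold, and Idi1, Tm7sf2, Ebp and Sc5d were not tested.

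Neither regulator passed the edgeR test without a replicate block and with all kidneys in. Srebf2 (chromosome 15, 82147181 to 82205379) stood at 80.1, 93.3, 64.4 and 91.2 CPM in the controls, at 111.9, 109.8, 115.7 and 82.3 CPM in set A and at 77.7, 69.9, 89.6 and 154.5 CPM in set B. In set A 3 kidneys were above all controls, and in set B only replicate 4, the kidney that stood apart, was. The log2 fold change was 0.33 ± 0.21 (SE) in set A, with an interval from -0.15 to 0.80 (edgeR, adjusted p = 0.334), and 0.22 ± 0.21 in set B, from -0.26 to 0.70 (edgeR, adjusted p = 0.553). Without set B replicate 4 the value in set B was -0.07 (edgeR, adjusted p = 0.855). Both intervals lie above those of Hmgcs1, which end at -1.91 and -1.88. Within a kidney, Hmgcs1 CPM was 4.04 to 5.62 times Srebf2 CPM in the controls and 0.2995 to 1.28 times in the ischemic kidneys. The lowest of these was set B replicate 4, and the next lowest, at 0.501 times, was set A replicate 3. The small RNA gene Mir33 lies within Srebf2 on the same strand, and these counts do not measure its mature product.

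Insig1 (chromosome 5, 28071363 to 28078662) stood at 7.71, 10.2, 8.29 and 3.85 CPM in the controls, at 1.92, 0, 3.46 and 1.25 CPM in set A and at 3.14 CPM in set B replicate 1, with no count in the other 3 kidneys of set B. Every ischemic kidney lay below every control kidney, but by a small gap, 3.46 against 3.85 CPM. Values without overlap were found for 28.5% of all tested genes in set A and for 26.8% in set B. The exact two-sided permutation test of mean CPM gave p = 0.0286 in each set, the smallest it can give. The log2 fold change was -2.20 ± 1.44 (SE) in set A (edgeR, adjusted p = 0.367) and -3.23 ± 1.46 in set B (edgeR, adjusted p = 0.162), and the intervals, from -5.46 to 1.07 and from -6.52 to 0.07, include 0. With both sets averaged it was -2.71 ± 1.25 (edgeR, adjusted p = 0.109). The call depended on the model and on 1 kidney. Without set B replicate 1, the 3 remaining set B kidneys had no count and Insig1 passed the threshold in set B (edgeR, adjusted p = 0.00149) and over both sets (edgeR, adjusted p = 0.000888). limma-trend called it in set B (adjusted p = 0.00697) and over both sets (adjusted p = 0.0115) with all kidneys in, and not in set A. The edgeR fit with the replicate number as a block called it over both sets (adjusted p = 0.0402).

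The comparison of set B with set A asked whether the state of the animal during ischemia, whichever label is right, went with these genes. None of the 7 tested genes passed the threshold in edgeR, in DESeq2 or in limma-trend, and 0 had an unadjusted p under 0.05 in edgeR, while 0.00857% of all genes were called. For Hmgcs1 the log2 difference was 0.03, with an interval from -0.49 to 0.55, which bounds the difference in either direction. Srebf2 differed by -0.10, with an interval from -0.58 to 0.37, and Fdps by 0.28, from -0.57 to 1.13. Sqle had the largest difference, 1.94 with an interval from -0.93 to 4.81, and 3 of the 4 set B kidneys were above every set A kidney (exact two-sided permutation test of mean CPM, p = 0.0571).

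Of the other enzymes of the pathway, 13 were analysed, all present in the table, of which 10 were tested. In each set 2 of the 10 were lower (Mvd and Cyp51) and 0 higher, against 11.7% and 11.9% of all genes called lower. The 8 that did not pass were Acat2, Mvk, Pmvk, Lbr, Msmo1 (listed as Sc4mol), Nsdhl, Hsd17b7 and Dhcr7, and Tm7sf2, Ebp and Sc5d were not tested. Of these 10, 9 had a log2 fold change below 0 in each set, and the exception, Hsd17b7, had values of 0.42 and 0.91 with unadjusted p of 0.875 and 0.734 in edgeR. Some of these signs changed over the alternatives. In set A, Mvk ranged from -2.98 to 0.76 and Pmvk from -1.62 to 0.77. In set B, Pmvk ranged from -2.0 to 1.12 and Msmo1 from -1.44 to 0.46. The medians of the 10 were -1.52 and -1.67, beside -0.02 over all genes. Of the 19 enzymes analysed, the 6 among the 8 genes included, 2 to 6 were at 3 counts or fewer in a control kidney and 5 to 10 in an ischemic kidney.

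Mvd, the decarboxylase that ends the mevalonate steps, stood at 6.29, 30.6, 25.0 and 16.7 CPM in the controls, at 3.90, 2.52, 2.52 and 1.01 CPM in set A and at 3.75, 1.68, 3.75 and 3.90 CPM in set B. It fell by 3.01 ± 0.53 (SE) on the log2 scale in set A (edgeR, adjusted p = 0.000524) and by 2.62 ± 0.53 in set B (edgeR, adjusted p = 0.00163), with no overlap between groups. Its call in each set held with any one kidney left out.

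Cyp51, the demethylase that acts on lanosterol, stood at 12.9, 8.76, 18.9 and 12.7 CPM in the controls, at 0.575, 0, 1.34 and 0 CPM in set A and at 1.17, 2.17, 0 and 1.56 CPM in set B. It fell by 4.76 ± 1.09 (SE) on the log2 scale in set A (edgeR, adjusted p = 0.00832) and by 3.46 ± 1.08 in set B (edgeR, adjusted p = 0.0397). Every ischemic kidney was below every control kidney. The call in set B was nevertheless lost without any one of the 8 kidneys compared, with adjusted p up to 0.113 in edgeR, which leaves Mvd as 1 call of the 10. DESeq2 called 4 of the 10 in set B, adding Acat2 and Dhcr7.

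Proximal tubule markers fell with Hmgcs1. The summed level of 8 proximal tubule markers was 8035 to 9067 CPM in the controls against 1266 to 2111 (set A) and 703.8 to 2118 (set B), and all 8 were lower in each set by edgeR. The control mean of that sum was 5.74 and 6.44 times that of sets A and B, beside fitted folds of 5.399 and 5.29 for Hmgcs1. Most of the control sum was Slc34a1, at 4409 to 5091 CPM against 214.5 to 680.1 CPM after ischemia. Hnf4a fell less, from 1356 to 1570 CPM in the controls to 268.9 to 764.8 CPM. The fold of the sum and the ratios to it therefore depend on how the sum weights its markers. Per 1000 CPM of these markers, Hmgcs1 stood at 39.7 to 47.4 in the controls against 42.8 to 56.6 (set A) and 38.6 to 77.7 (set B), and these ratios overlapped. The same ratio was 8.02 to 10.6 in the controls and 36.7 to 219.5 in the ischemic kidneys for Srebf2, and 0.966 to 2.18 against 3.58 to 32.6 for Fdps, without overlap. Because the marker sum fell, this ratio rises for a gene whose own CPM is unchanged, and neither Srebf2 nor Fdps was called against control. For Mvd the ratio was 0.719 to 3.47 against 0.799 to 5.55, with overlap. The highest ischemic ratios of Srebf2, Fdps and Mvd were those of set B replicate 4. Without that kidney they were 85.6, 24.8 and 2.99. For Cyp51 the ratio was 0.994 to 2.36 in the controls against 0 to 0.9905 (set A), just below them, and 0 to 2.22 (set B), which overlapped. These ratios were chosen after the values were seen and are a description. What part the change in tubule cells had in the fall of Hmgcs1 was not tested.

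**Figure D3:**
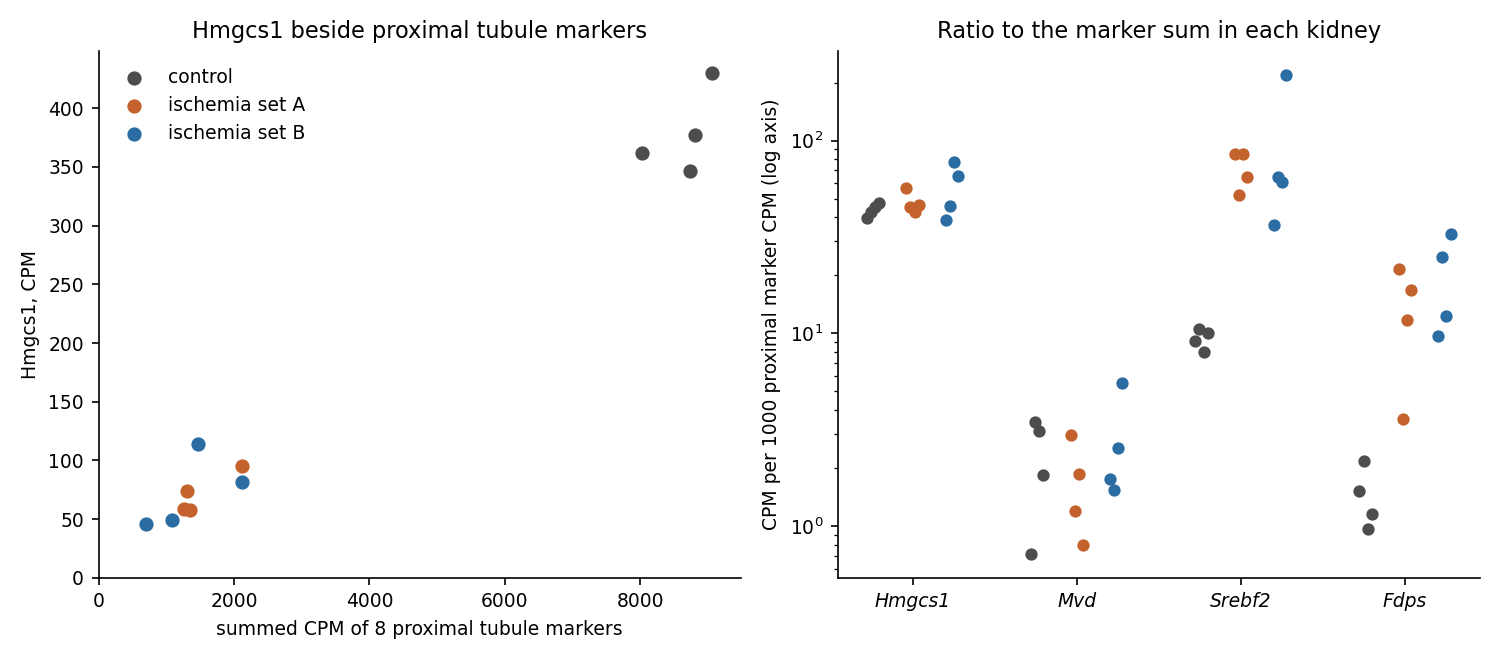
Left, Hmgcs1 CPM (vertical axis) against the summed CPM of 8 proximal tubule markers (horizontal axis), both linear from 0, in 12 kidneys; right, CPM of 4 genes per 1000 CPM of these markers in each kidney on a log axis, with controls in grey, set A in orange and set B in blue. The 8 ischemic kidneys lie low on both axes at left, and at right Hmgcs1 and Mvd overlap between groups whereas Srebf2 and Fdps lie higher in each ischemic kidney than in any control. The marker sum fell after ischemia, so the ratio at right rises for a gene whose own CPM is unchanged.

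Other marker lists are set beside the same shares of all genes, 10.5% and 10.9% called higher and 11.7% and 11.9% called lower. Injured tubule markers summed to 5.99 to 11.7 CPM in the controls and 174.7 to 254.1 after ischemia, with 5 of 6 higher in each set. Fibroblast and pericyte markers summed to 514.9 to 739.5 against 1373 to 3717 CPM, with 3 of 5 higher, and podocyte markers to 113.7 to 137.9 against 136.4 to 255.1 CPM, with 2 of 4 higher. Loop of Henle and distal tubule markers summed to 2820 to 3464 CPM in the controls and 1008 to 2023 after ischemia, with 2 of 5 lower in set A and 3 of 5 in the other set. Leukocyte markers summed to 46.7 to 66.6 against 12.3 to 36.3 CPM, with 2 of 6 tested lower in each set and list medians of 0.18 and -0.42, and blood markers to 58.2 to 118.8 against 14.5 to 48.9 CPM. Most of the control leukocyte sum was Csf1r, at 41.6 to 60.7 CPM against 4.295 to 19.9 after ischemia, while Ptprc overlapped, at 1.61 to 6.13 against 0 to 11.6 CPM. Collecting duct markers summed to 56.9 to 77.1 against 29.1 to 73.2 CPM, endothelial markers to 51.0 to 60.3 against 33.9 to 63.1 CPM and proliferation markers to 10.2 to 13.3 against 25.7 to 63.6 CPM. The collecting duct value of 73.2 CPM was that of set B replicate 4, and the highest other ischemic kidney, at 54.0 CPM, was below all controls. Adrenal cortex, a neighbouring tissue that makes much sterol, had 7 of 8 markers at 0 in every kidney, and the remaining one, Star, stood at 1.295, 1.55 and 1.43 CPM in set A replicates 3 and 4 and set B replicate 2 and at 0 in the others. All 6 fat cell markers were at 0. The part of any of these marker lists in the results was not tested.

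**Figure D4:**
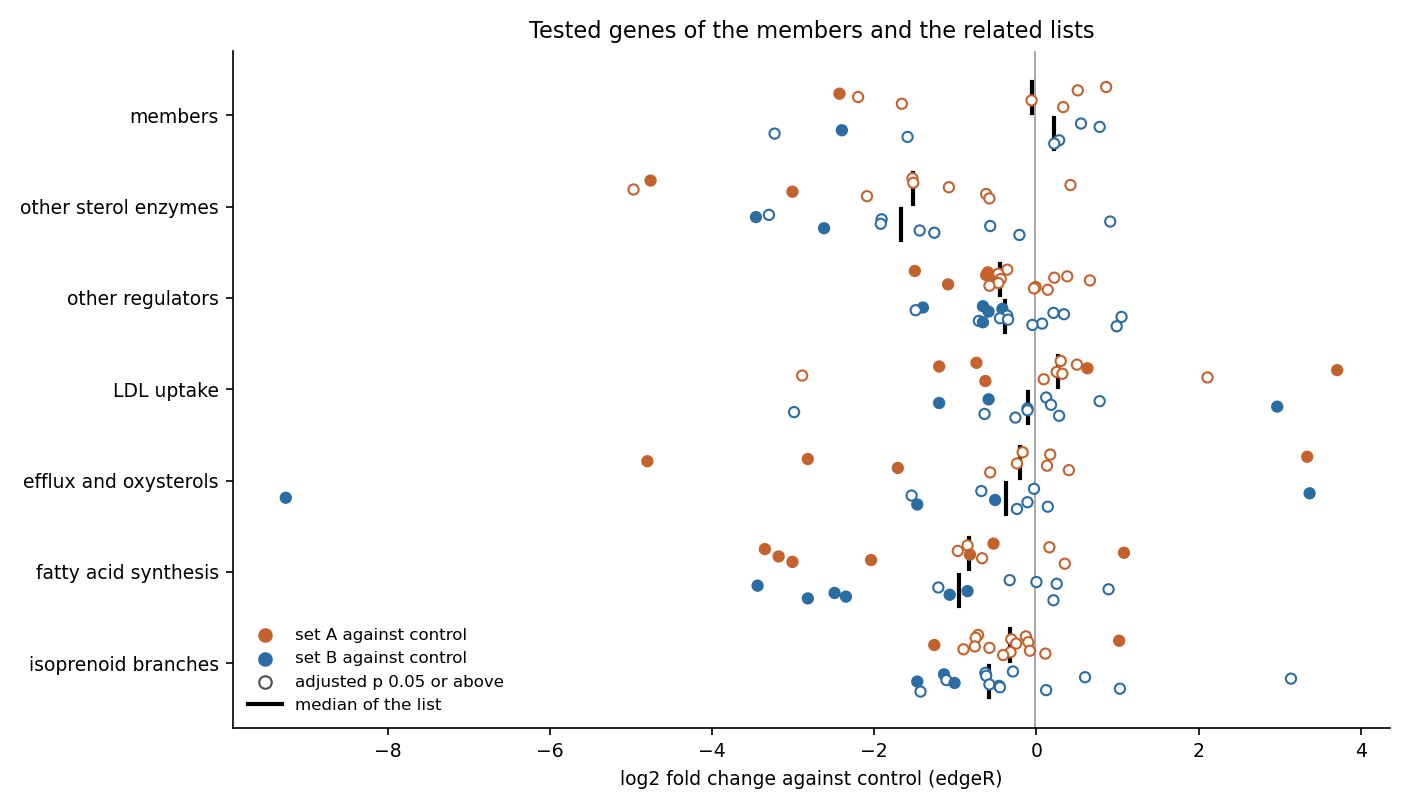
Log2 fold change against control (horizontal axis, edgeR) of each tested gene of 7 lists, set A in orange and set B in blue; filled points passed the adjusted threshold of 0.05, black marks are list medians and the grey line is the median of all genes at -0.02. The members spread around 0 with 1 filled point a set, while the other sterol enzymes and the fatty acid genes lie mostly below 0; the point at the far left is Cyp7b1, whose set B kidneys had at most 1 count, so its fitted value is no measure of size.

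Of regulators of the pathway beyond the pair described above, 16 were analysed, all tested. In each set 5 were lower and 0 higher, against 11.7% and 11.9% of all genes called lower, with medians of -0.45 and -0.39. The count in set A was 3 without control replicate 3 or 4 or set A replicate 1 or 3, where Rnf145 and Nfyc, a subunit of the factor NF-Y, which binds beside the SREBP factors, were no longer called. In set B it was 3 without set B replicate 2, where Scap and Erlin2, the partner of Erlin1, lost their calls. The only calls in the higher direction under a left-out kidney were Mbtps2, a protease that releases the Srebf2 protein, in set A without set B replicate 4 and Nfe2l1, a transcription factor anchored in the endoplasmic reticulum membrane, in set B without set B replicate 1. The largest falls among those called were in Erlin1, a membrane protein of endoplasmic reticulum protein degradation, at -1.50 ± 0.27 (SE) and -1.40 ± 0.27 (edgeR, adjusted p = 0.000348 and 0.000689). Rnf145, a ubiquitin ligase of that membrane, fell by 1.09 ± 0.37 (SE) on the log2 scale in set A (edgeR, adjusted p = 0.0408) and had a value of -0.71 in set B (edgeR, adjusted p = 0.202). Its call was lost without the low-count filter and without control replicate 3 or 4 or set A replicate 1, 3 or 4, with adjusted p up to 0.195 in edgeR. Scap, which carries the Srebf2 protein out of the endoplasmic reticulum, had log2 fold changes of -0.58 ± 0.21 (SE) in set A (edgeR, adjusted p = 0.0582) and -0.66 ± 0.21 in set B (edgeR, adjusted p = 0.0298), where its call was lost without control replicate 2 or 4 or set B replicate 2 or 4 (adjusted p up to 0.0940). Srebf1, the partner gene of Srebf2 that serves fatty acid synthesis, had values of -0.03 and -0.05 with adjusted p of 0.961 and 0.942 in edgeR.

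Uptake of lipoproteins was followed in 12 genes, all tested, of which 2 were higher and 3 lower in set A and 1 higher and 2 lower in set B, while the shares of all genes were 10.5% and 10.9% called higher and 11.7% and 11.9% called lower. The medians were 0.27 and -0.11. The gene that rose in both sets was Lrp8, an apolipoprotein E receptor, from 5.45, 2.09, 2.35 and 4.41 CPM in the controls to 56.9, 63.9, 42.9 and 25.9 CPM in set A and 24.9, 19.4, 23.7 and 45.5 CPM in set B. All ischemic kidneys were above all controls, with a log2 fold change of 3.71 ± 0.35 (SE) in set A (edgeR, adjusted p = 5.31e-07) and 2.97 ± 0.35 in set B (edgeR, adjusted p = 6.43e-06). Dab2, an adaptor for receptor endocytosis, fell by 0.74 and 0.59 on the log2 scale (edgeR, adjusted p = 0.00174 and 0.0102), and Lipa, the lysosomal lipase that frees cholesterol from LDL, by 1.20 in each set (edgeR, adjusted p = 0.0285 and 0.0279). In set A alone the threshold was passed by Vldlr, at -0.63, and by Lrp1, at 0.63 (edgeR, adjusted p = 0.00436 and 0.0204), with values of -0.26 and 0.18 in set B, and each had an adjusted p of 0.941 for set B against set A in edgeR. Lipa lost its call without control replicate 1, 2 or 3 or set A replicate 1, 2 or 3 in set A (adjusted p up to 0.0950) and without control replicate 1, 2 or 3 or set B replicate 2, 3 or 4 in set B (adjusted p up to 0.0894), and Lrp1 lost it without control replicate 3 or set A replicate 1 or 3 (adjusted p up to 0.104), all in edgeR.

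For efflux, esterification and oxysterols, 10 of 12 genes were tested, with 1 higher and 3 lower in each set, beside 10.5% and 10.9% of all genes called higher and 11.7% and 11.9% called lower. The medians were -0.20 and -0.38. One of the genes called lower in set B, Lpcat3, was called in 8 of 20 alternatives. Its call was lost with RLE factors, the filter of over 1 CPM, the fit of the 2 groups alone and several left-out kidneys (edgeR, adjusted p up to 0.1145). Arl4c, a small GTPase gene switched on by oxysterol receptors, rose by 3.34 ± 0.51 (SE) and 3.37 ± 0.51 on the log2 scale (edgeR, adjusted p = 0.000149 and 0.000135). Nr1h3, which encodes the oxysterol receptor LXR alpha, had log2 fold changes of -1.71 ± 0.40 and -1.47 ± 0.40 (edgeR, adjusted p = 0.00461 and 0.0129). Cyp7b1, an oxysterol hydroxylase, went from 6.73, 7.53, 13.1 and 10.7 CPM in the controls to 0, 0, 0 and 1.43 CPM in set A and to at most 1 count in each set B kidney (edgeR, adjusted p = 0.0274 and 0.00152). In set A its call was lost without control replicate 2, 3 or 4 or set A replicate 1, 2 or 3 (edgeR, adjusted p up to 0.0827). Cyp27a1, the sterol 27-hydroxylase, was called in set A at -2.82 ± 0.87 (edgeR, adjusted p = 0.0346) and not in set B at -1.54 ± 0.87 (edgeR, adjusted p = 0.254), and its set A call was lost without control replicate 1, 3 or 4 or set A replicate 1 or 2 (adjusted p up to 0.0919).

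Fatty acid synthesis, which shares acetyl-CoA and the SREBP factors with the sterol pathway, had 12 of 14 genes tested, with 6 lower and 1 higher in set A and 6 lower and 0 higher in set B, beside 11.7% and 11.9% of all genes called lower and 10.5% and 10.9% called higher. The medians were -0.83 and -0.96. The count of lower genes was 4 in set A without control replicate 2 or 3 or set A replicate 1. In set B it was 4 without control replicate 2 or set B replicate 2. In these fits Acss2, Scd1 and Fads2 kept their calls. Acss2, which makes acetyl-CoA from acetate, fell from 1182 to 1440 CPM in the controls to 95.9 to 199.3 CPM after ischemia, with log2 fold changes of -3.35 ± 0.18 (SE) and -3.44 ± 0.18 (edgeR, adjusted p = 2.94e-10 and 2.56e-10). Scd1, a desaturase, had log2 fold changes of -3.01 ± 0.49 and -2.82 ± 0.49 (edgeR, adjusted p = 0.000231 and 0.000423), and Fads2, another desaturase, of -3.18 ± 0.32 and -2.49 ± 0.32 (edgeR, adjusted p = 8.39e-07 and 1.25e-05). The intervals of Acss2, from -3.76 to -2.94 and from -3.85 to -3.04, stand beside lower ends of -2.95 and -2.92 for Hmgcs1, so that the intervals overlap in set A and not in set B. Elovl6, an elongase, rose by 1.08 ± 0.32 in set A (edgeR, adjusted p = 0.0207), a call lost without control replicate 2, 3 or 4 or set A replicate 4 (adjusted p up to 0.0778). In set B it had a value of 0.89 (edgeR, adjusted p = 0.0553) and was called in 6 of 20 alternatives. These were DESeq2, limma-trend, the filter of over 1 CPM, the replicate block, and the fits without control replicate 1 or set B replicate 3.

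In the branches that use farnesyl diphosphate for other products, 15 of 15 genes were tested, with 1 higher and 1 lower in set A and 0 higher and 3 lower in set B, beside 10.5% and 10.9% of all genes called higher and 11.7% and 11.9% called lower, and with medians of -0.32 and -0.58. Nus1, of the enzyme that makes dolichol chains, was lower in both, at -1.26 ± 0.21 (SE) and -1.47 ± 0.21 (edgeR, adjusted p = 0.000184 and 3.72e-05). Dolk, dolichol kinase, was called in set B at -1.14 ± 0.36 (edgeR, adjusted p = 0.0295) and Pdss1, of ubiquinone side chain synthesis, at -1.01 ± 0.36 (edgeR, adjusted p = 0.0493), with set A values of -0.75 and -0.76. Fntb, the beta subunit of farnesyltransferase, was called in set A at 1.02 ± 0.34 (edgeR, adjusted p = 0.0379), with 0.60 in set B. These last 3 calls did not hold in all fits: in edgeR Dolk lost it without control replicate 1 or 4 or set B replicate 2, 3 or 4 (adjusted p up to 0.0902), Fntb without control replicate 1, 2 or 4, set A replicate 4 or set B replicate 2 (up to 0.161), and Pdss1 held it in 5 of 20 alternatives (up to 0.208).

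The genes whose pattern within groups was most like the mean profile of the 7 tested genes were found by correlating the deviation of log2 CPM from the group mean over the 12 kidneys, among 8451 genes of at least 1 mean log2 CPM outside the lists. They were Apba1 (r = 0.899), Supt6 (0.894), Cotl1 (0.890), Adamts9 (0.886) and Hs6st2 (0.881), values that share libraries and depth and are the top of many. The profile is the mean of the 7 tested genes, so those that varied most within groups weigh most in it. Their own correlations with it were 0.833 for Lss, 0.701 for Insig1, 0.655 for Fdps, 0.553 for Fdft1 and 0.376 for Sqle. For Hmgcs1 and Srebf2 they were -0.028 and -0.177, so the profile does not follow these 2 genes.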

How the data were processed

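RNA from 12 kidneys was extracted with Trizol and made into stranded mRNA libraries, sequenced as single reads of 100 bases. By the methods of the study, FastQC was used for quality control, STAR for alignment to mm10 and HTSeq for counting. The authors deposited raw counts per gene, without normalization. Versions, the annotation release and the strand setting are not given in the sources used here. Samples were grouped by their titles.

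The counts were analysed in edgeR 4.0.16 (R 4.3.3). The filter filterByExpr required a count of 10 and a total of 15, and 11664 genes passed. TMM factors were 0.968 to 1.025. One model of 3 groups over 12 kidneys, with 9 residual degrees of freedom, gave two-sided quasi-likelihood F-tests, with Benjamini-Hochberg adjustment over every gene that passed and a threshold of 0.05. CPM values use the total counts. Standard errors came from the same model and intervals from a t distribution with 9 degrees of freedom. Mean CPM of 4 against 4 kidneys was compared by two-sided exact permutation over 70 arrangements. The procedure was tested on simulated counts. Tables and plots were made in Python 3.11.15 with pandas 2.3.3, NumPy 2.4.6, matplotlib 3.10.9 and SciPy 1.17.1. Positions and exon lengths came from GENCODE on GRCm38 and promoters from RefSeq.

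The members, lists and alternatives were chosen with earlier results of these data known. All 8 members and all other sterol enzymes analysed were named, and from each further list the genes past the threshold in either set, up to the 3 largest rises and 3 largest falls by the mean of both sets, with the 5 genes most like the mean profile of the members. Some genes of the lists are not reported here, and every count, median and named gene of a list leaves them out. Genes named outside the rule are Srebf1, Nfyc, Erlin2, Mbtps1, Mbtps2, Nfe2l1, Lpcat3, the markers Slc34a1, Hnf4a, Star, Csf1r and Ptprc and the overlapping genes Gm43738, Ctsb and Mir33. The alternatives were DESeq2 1.42.0, RLE factors, total counts, no filter, a filter of over 1 CPM in 4 or more kidneys, a fit of the 2 groups alone, a replicate block, limma-trend (version 3.58.1 of limma) and leaving out each kidney. Total counts were 15367342 to 44793350 per kidney, which sets 3 counts at 0.067 to 0.195 CPM.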

Additional observations from a re-analysis of the deposited data

Results flagged for a closer look

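In groups of 4 kidneys, the highest or lowest kidney of a gene stood apart from the other 3 by more than Dixon's 95% critical value in 11 of the 58 groups of the 8 genes and the other sterol enzymes; chance alone flags about 1 in 20 groups, and many of these genes had kidneys at or near 0. Among the 8 genes this was Insig1 in set B, at 3.14 CPM in replicate 1 and 0 in the others. Without that kidney Insig1 passed the threshold in set B (edgeR, adjusted p = 0.00149).

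Of the other enzymes, Mvd stood at 1.68 CPM in set B replicate 2 against 3.75 to 3.90. Acat2 stood at 4.91 CPM in set A replicate 2 against 0.863 to 1.49 in the others. Mvk stood at 3.91 CPM in control replicate 2 against 0.393 to 0.795, and at 3.13 CPM in set A replicate 1 against 0 to 0.521. Hsd17b7 stood at 2.30 CPM in set A replicate 3 and at 3.32 CPM in set B replicate 4, with 0 in the other kidneys of these sets. Sc5d stood at 0.204 CPM in control replicate 2, with 0 in the other controls, and at 2.34 CPM in set B replicate 4 against 0 to 0.296. Tm7sf2 stood at 0.826 CPM in set A replicate 3 against 0 to 0.0595, and Ebp at 0.288 CPM in set A replicate 1 with 0 in the others.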

How the results depend on the processing

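Hmgcs1 passed the threshold against control in each of the 20 alternatives for each set, with log2 fold changes of -2.60 to -2.33 (set A) and -2.71 to -2.23 (set B). In set A the count of called members stayed at 1 in every alternative. In set B it was 2 with limma-trend and 1 to 2 with 1 kidney left out, and over both sets it was 2 with limma-trend, 2 with the replicate block and 1 to 2 with 1 kidney left out, Insig1 being the added gene each time. The count of other sterol enzymes in set B was 1 to 2 with 1 kidney left out, against 2 with all kidneys, and 1 with the replicate block, 4 with DESeq2 and 3 with limma-trend. The cause of these differences was not tested.

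Values of genes that did not pass the threshold changed sign in some alternatives. With 1 kidney left out, Lss in set A against control ranged from -0.92 to 0.40, above 0 without control replicate 3 or 4 or set A replicate 2 or 3, and Fdft1 from -0.05 (without set A replicate 4) to 1.55. In set B against control, Sqle ranged from -0.06 (without control replicate 4) to 0.72 and Srebf2 from -0.07 (without set B replicate 4) to 0.32. In set B against set A, Hmgcs1 ranged from -0.26 (without set B replicate 3) to 0.20, below 0 also without set A replicate 3 or 4 or set B replicate 1, and was -0.01 with the replicate block and -0.04 with limma-trend. Fdft1 ranged there from -0.70 to 0.58 (without set A replicate 4) and was 0.21 with limma-trend, and Srebf2 from -0.40 to 0.01 (without set B replicate 2).

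The labels number the replicates 1 to 4 in each group, but same-numbered kidneys did not deviate together (correlations of -0.055 to 0.045 over 12 pairs), so the numbers were not taken as pairs. With the replicate block, the other sterol enzymes called were 2 (set A) and 1 (set B, without Cyp51), and Rnf145 lost its call in set A. Under the 8 settings that keep all kidneys, the median of all genes lay within 0.1 of 0 on the log2 scale. Idi1, Insig1, Sqle, Fdft1 and Lss had kidneys without a count, and the part of depth in this was not tested.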
